A study of Mus musculus with 4 samples.

Results

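Igf2bp3 read higher in marrow cells infected with a Cre-GFP retrovirus than in control cells on all 4 of its probe sets, but by very different amounts, and Hmga2 read higher on all 3 of its own. None of these differences passed the adjusted test, and 2 of the Igf2bp3 probe sets were too dim to measure one. The 8 genes Igf2bp1, Igf2bp2, Igf2bp3, Hmga1, Hmga2, Lin28a, Igf2 and H19, a set of genes known mainly from fetal tissues and tumours, were described here by probe set. Each probe set, a group of short probes on an Affymetrix array summarised to 1 value, counted as a member where the platform annotation gave it exactly 1 of these symbols. That held for 13 of 20380 probe sets with 1 symbol and for 5 of the 8 genes. Igf2bp1 had 2 such probe sets, Igf2bp3 had 4, Hmga2 had 3, and Lin28a and Igf2 had 2 each. Igf2bp2 and Hmga1 were not named by the annotation used and were not analysed here. H19 stood only on a probe set annotated jointly to H19 and Mir675, which is described apart.

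All cells came from Mll-AF4stop knock-in mice, whose Mll-AF4 fusion construct is silent until Cre recombinase removes a stop. The mice had received 5-FU, a drug that kills cycling cells, 5 days before their marrow was taken and infected in culture. The Cre-GFP group, with 2 arrays, received a retrovirus carrying Cre and GFP, and the control group, with 2 arrays, received a GFP retrovirus labelled MIG. The GFP+ cells of both groups were sorted after 2 days and grown for a further 14 days with cytokines that favour lymphoid progenitors. The labels give no age for the mice. The study's design text names the control virus MIG-Cre, against the sample labels, which were followed. If the control virus carried Cre, the groups would not differ in fusion activation as labelled, and if it did not, the presence of Cre and the active fusion cannot be told apart. No label states that replicate arrays stem from different animals or cultures, so a p-value here reflects array-to-array spread that can be technical.

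Lin28 proteins are RNA-binding proteins that block maturation of the let-7 family of microRNAs, which otherwise bind and repress many growth mRNAs. Mammalian Hmga2, Lin28 and Igf2bp mRNAs are themselves textbook let-7 targets, and the proteins are abundant in embryonic cells and scarce in most adult ones. The Igf2bp proteins bind mRNAs and alter their stability, transport and translation, and were named for binding the mRNA of the growth factor Igf2. IGF2BP3 is known in human leukemias with MLL fusions, where it binds and stabilises many transcripts.

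Mature let-7 was not analysed here. The 5′ arms that follow are shown because they carry the sequence through which let-7 acts on mRNAs of this group. Capitals mark the seed, bases 2 to 8, and the sequences are from RefSeq (GRCm38.p6).
mmu-let-7a-5p: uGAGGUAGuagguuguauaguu
mmu-let-7g-5p: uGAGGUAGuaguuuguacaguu
mmu-miR-98-5p: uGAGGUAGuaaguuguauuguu
The seed GAGGUAG was shared by 11 mature mouse miRNAs of that table, among them mmu-miR-98-5p and mmu-miR-1961, which are not named let-7. H19 holds the hairpin of a different miRNA inside its transcript, whose arms carry other seeds.
mmu-miR-675-5p: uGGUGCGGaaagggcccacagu
mmu-miR-675-3p: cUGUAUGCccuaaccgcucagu

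The stretches of 250 bases before a listed start of Igf2bp3 and of Hmga2 are shown because these genes were the members with every probe set higher in Cre-GFP cells. They are from RefSeq (GRCm38.p6), both on the minus strand, at chr6:49214955-49215204 for Igf2bp3 and chr10:120476470-120476719 for Hmga2. Capitals mark matches to CCAAT or GGGCGG on either strand. The Igf2bp3 stretch lies inside the span that the same source gives for the gene as a whole, so another start lies further upstream.
Igf2bp3: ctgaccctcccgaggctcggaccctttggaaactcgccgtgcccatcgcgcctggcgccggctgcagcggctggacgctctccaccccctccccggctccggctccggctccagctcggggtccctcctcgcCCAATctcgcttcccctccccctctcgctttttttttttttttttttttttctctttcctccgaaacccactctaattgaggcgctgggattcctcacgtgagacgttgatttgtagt
Hmga2: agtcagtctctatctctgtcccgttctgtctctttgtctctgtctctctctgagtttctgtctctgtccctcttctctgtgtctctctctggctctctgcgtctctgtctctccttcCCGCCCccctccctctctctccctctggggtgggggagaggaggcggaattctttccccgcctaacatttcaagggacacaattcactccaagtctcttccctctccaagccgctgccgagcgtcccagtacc
The windows searched also took in 50 bases after the start, for 300 bases in all. The Igf2bp3 window held 25 CpG dinucleotides and 60.3% G and C, and the Hmga2 window held 12 and 57.7%, beside medians of 7 and 52.7% over 32851 windows of 27025 genes. The TATA box TATAAA, present in 13.6% of all windows, and TGACAG, the core of a Meis site, present in 19.2%, were found in neither window on either strand. CCAAT was found 1 time in the Igf2bp3 window and in 37.4% of all windows, and GGGCGG was found 1 time, on the reverse strand as CCGCCC, in the Hmga2 window and in 35.7% of all windows. None of these motifs overlapped another in the windows shown. A match is a description of the letters only.

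The deposited values were linear intensities made with RMA, which were put on the log2 scale. The arrays had median intensities between 85.1 and 87.7 in Cre-GFP cells and between 85.9 and 86.2 in control cells. As a mark of weak signal, the 20th percentile of each array lay at 4.69 to 4.76 on the log2 scale in Cre-GFP cells and at 4.71 to 4.75 in control cells. Each probe set was fitted with limma, and p-values were adjusted by Benjamini-Hochberg over all 20380, with a threshold of 0.05. None of the 13 member probe sets passed, and the background was 0% of all probe sets. An ordinary two-sample test with equal variances passed 1 probe set of the table and no member. The smallest adjusted p by limma was 0.187 over all probe sets and 0.202 among the members. Without adjustment, 976 probe sets had p under 0.05 by limma, among them 6 of the 13 member probe sets. All 6 were higher in Cre-GFP cells, against 2.37% of all probe sets that were higher with p under 0.05. They were the 4 probe sets of Igf2bp3, and 1422851_at and 1450781_at of Hmga2, so they are not 6 independent readings. Of these, 1453957_a_at and 1450687_at of Igf2bp3 lay under the 20th percentile on all arrays. The members were also chosen with earlier results of these data known.

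Both Cre-GFP arrays lay above both control arrays for 8 of the 13 member probe sets, against 15.4% of all probe sets. Both lay below for 2 of the 13, against 14.6% of all, and 3 overlapped. The 8 higher ones were the 4 of Igf2bp3, the 3 of Hmga2 and 1 of Lin28a. Probe sets annotated to 1 gene are not independent readings, though they need not read the same transcripts. With 1 probe set a gene, that of highest mean, 2 of the 5 genes were higher without overlap, Igf2bp3 and Hmga2. Igf2bp1 and Lin28a were lower without overlap, and Igf2 overlapped. Over all genes the shares were 15.2% higher and 14.9% lower without overlap. The median log2 difference, Cre-GFP minus control, was 0.24 over the member probe sets and 0.0019 over all, of which the middle 95% ran from -0.44 to 0.42. Of the 13 member probe sets, 4 lay under the 20th percentile on all arrays, where RMA compresses differences, and 3 of these 4 were among the 8 higher ones, which became 5 with values raised to that percentile. In bulk RNA, fewer cells of a type and less RNA per cell cannot be told apart.

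**Figure D1:**
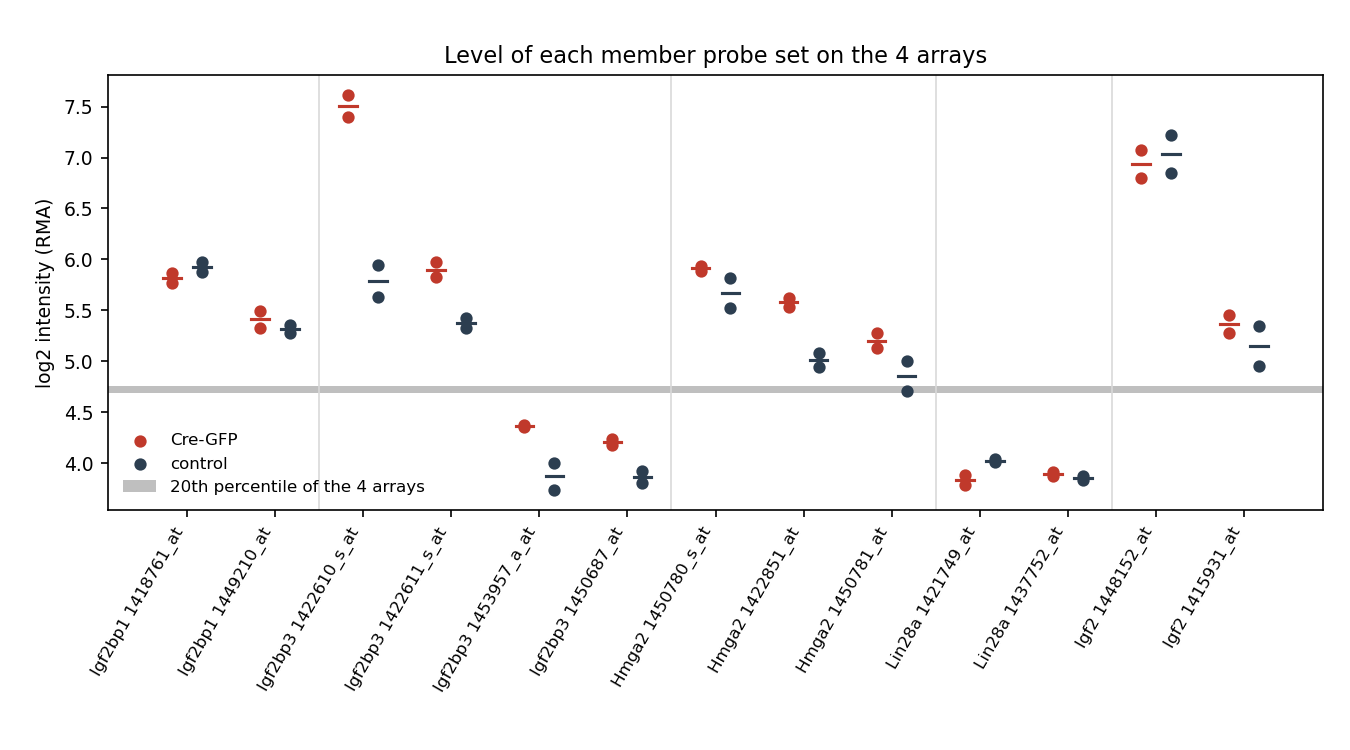
Log2 intensity (vertical axis) of the 13 member probe sets on each array, with points for arrays, short bars for group means of 2 arrays, and a grey band for the 20th percentile of the arrays. Cre-GFP points stand above control points for all Igf2bp3 and Hmga2 probe sets, and heights of different probe sets are not comparable as amounts of RNA.

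Igf2bp3, the RNA-binding protein of the family best known from MLL-rearranged leukemia, gave the widest difference of the group on its probe set 1422610_s_at. The intensity was 196 and 169 in Cre-GFP cells, against 61.7 and 49.5 in control cells, so that the lowest Cre-GFP array stood far above the highest control array. On the log2 scale the values were 7.62 and 7.40 in Cre-GFP cells, against 5.95 and 5.63 in control cells. The difference was 1.72 ± 0.17 (SE, 2 arrays per group), or 3.29-fold, with a 95% interval from 1.30 to 2.13. By limma the unadjusted p was 5.9e-05, rank 6 of 20380, and the adjusted p was 0.202. With control 1 left out the adjusted p by limma was 0.0494, the only setting under which a member passed the threshold. Leaving out an array leaves 1 array in its group, which is then assumed to vary like the arrays of the other group, and this holds for every such value here. Over the arrays left out in turn the difference ranged from 1.56 to 1.88. With 50 added to every intensity before taking logs, it was 1.14.

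The other probe sets of Igf2bp3 were higher in Cre-GFP cells too, by less. Probe set 1422611_s_at read 56.6 and 62.8 in Cre-GFP cells, against 40.1 and 42.9 in control cells, a log2 difference of 0.52 ± 0.12 and a fold of 1.44. Probe set 1453957_a_at read 20.5 and 20.7 in Cre-GFP cells, against 16.1 and 13.3 in control cells, a log2 difference of 0.49 ± 0.12 and a fold of 1.41. Probe set 1450687_at read 18.1 and 18.9 in Cre-GFP cells, against 15.1 and 13.9 in control cells, a log2 difference of 0.35 ± 0.092 and a fold of 1.27. In each of these the groups did not overlap. Their unadjusted p-values by limma were 0.0044, 0.0057 and 0.0095, and their adjusted p-values were 0.672, 0.717 and 0.747. Probe sets 1453957_a_at and 1450687_at were under the 20th percentile on all 4 arrays. With values raised to that percentile their differences became -0.0036 each, which is the difference between the groups' percentiles themselves, so only the 2 brighter probe sets gave a difference above that mark. With 50 added to every intensity the difference was 0.26 for 1422611_s_at, 0.13 for 1453957_a_at and 0.086 for 1450687_at.

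The disagreement was measured within each array, as the log2 value of 1422610_s_at minus that of another Igf2bp3 probe set, which removes whatever an array adds to both. Minus 1422611_s_at it was 1.79 and 1.43 in Cre-GFP cells, against 0.62 and 0.21 in control cells. Minus 1450687_at it was 3.43 and 3.16 in Cre-GFP cells, against 2.03 and 1.83 in control cells. Minus 1453957_a_at it was 3.26 and 3.03 in Cre-GFP cells, against 1.94 and 1.89 in control cells. In all 3 pairs both Cre-GFP arrays lay above both control arrays.

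The difference on 1422610_s_at exceeded that on 1422611_s_at, the only other Igf2bp3 probe set above the 20th percentile on all arrays, by 1.20 ± 0.22 log2 units, with a 95% interval from 0.67 to 1.72. Every gene with several probe sets was treated alike, which gave 7987 pairs over 4956 genes and a median absolute disagreement of 0.12. This pair ranked 16 by unadjusted p. Its adjusted p over all pairs by limma was 0.615, and 0% of all pairs passed, with 324 at an unadjusted p under 0.05. Leaving out arrays in turn gave 0.99 to 1.40 log2 units. With 50 added to every intensity the excess was 0.88, so its size also depended on how weak values are treated. Against the dim probe sets 1450687_at and 1453957_a_at the excess was 1.37 and 1.23 in the deposited values and 1.72 for each with values raised to the 20th percentile, so its size there depends on how dim values are treated and was not measured. Neither of these pairs passed after adjustment by limma, at 0.328 each.

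The platform annotation lists the same reference transcript for 1422610_s_at, 1422611_s_at and 1450687_at and another for 1453957_a_at. The ending _s_at marks probe sets that may match transcripts of several genes or forms, and both 1422610_s_at and 1422611_s_at carry it. Without probe sets of that kind, Igf2bp3 was left with its 2 dim ones. The part of matching to other transcripts in it was not tested.

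**Figure D2:**
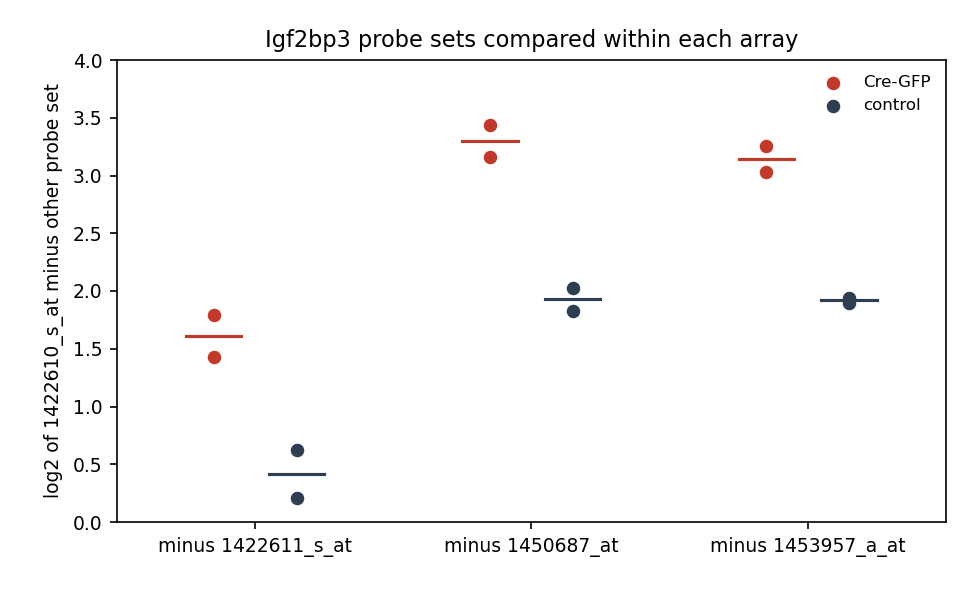
Log2 value of Igf2bp3 probe set 1422610_s_at minus each other Igf2bp3 probe set within the same array (vertical axis), with points for arrays and bars for group means. The Cre-GFP points lie above the control points in all 3 pairs, and the gap between the group means is 1.20 log2 units for 1422611_s_at. The other 2 probe sets lay under the 20th percentile on all arrays.

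The genes whose log2 values ran most like those of 1422610_s_at were found by Euclidean distance over the 4 arrays, with each gene centred on its own mean and given by its brightest probe set. This is a ranking over 4 arrays that share their preparation, and it includes the contrast itself. Hoxa5, a homeobox transcription factor, was closest at 0.0947. Its log2 values were 9.47 and 9.25 in Cre-GFP cells, against 7.81 and 7.59 in control cells, a difference of 1.66 ± 0.18. Meis1, the homeobox cofactor of Hox proteins, followed at 0.299, with a difference of 1.73 ± 0.13. Zcchc7, a zinc-knuckle protein of RNA surveillance, Tmem40, a membrane protein, and Hexa, a lysosomal hexosaminidase subunit, followed at 0.354, 0.363 and 0.410. Their differences were 1.60 ± 0.16, 1.43 ± 0.13 and 1.46 ± 0.22. None passed after adjustment over 12393 genes by limma, where the adjusted p was 0.15 for the first 4 and 0.265 for Hexa, but Hexa passed without control 1, and the other 4 passed without control 1 and again without control 2.

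**Figure D3:**
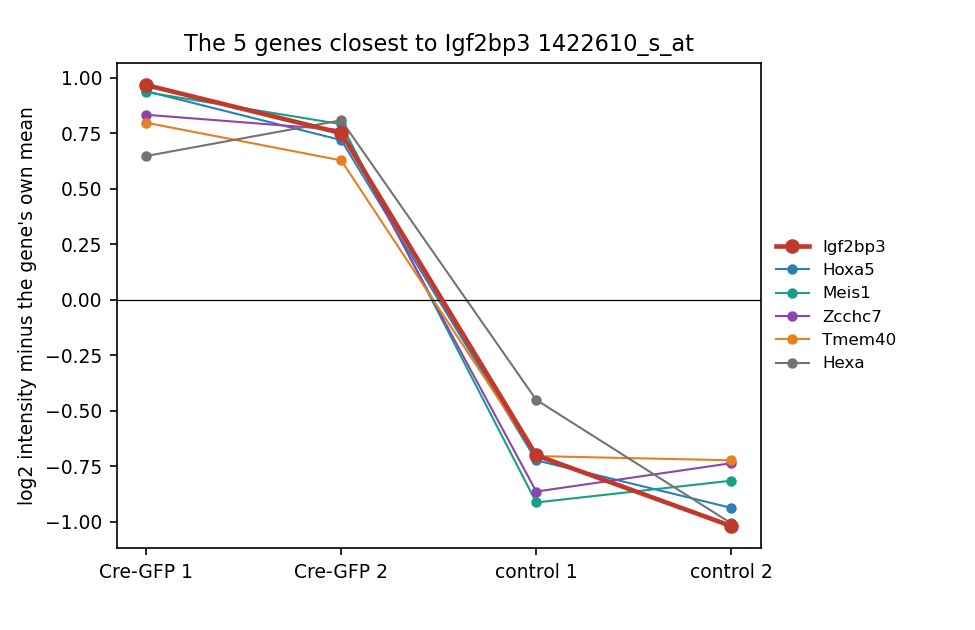
Log2 intensity of Igf2bp3 probe set 1422610_s_at and of the 5 closest genes, each minus its own mean over the arrays (vertical axis), on the 4 arrays (horizontal axis). All 6 lines lie above 0 in Cre-GFP cells and below 0 in control cells, and the Hoxa5 line runs closest to that of Igf2bp3.

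Igf2bp1, the family member that binds the Actb and Myc mRNAs, differed in opposite directions on its 2 probe sets. Probe set 1418761_at read 58.4 and 54.4 in Cre-GFP cells, against 58.7 and 63.1 in control cells, a log2 difference of -0.11 ± 0.12. Both Cre-GFP arrays lay below both control arrays, though Cre-GFP 1 and control 1 nearly coincided. Probe set 1449210_at read 45.0 and 40.2 in Cre-GFP cells, against 38.7 and 41.0 in control cells, and the groups overlapped, with a log2 difference of 0.096 ± 0.11. The 95% intervals ran from -0.40 to 0.18 and from -0.18 to 0.38, and limma's adjusted p was 1 for each. Leaving out arrays in turn gave -0.16 to -0.059 for 1418761_at and 0.015 to 0.18 for 1449210_at. A test of Igf2bp3 against Igf2bp1 was not run. The interval of 1422610_s_at lay above both intervals of Igf2bp1, while those of the other 3 Igf2bp3 probe sets, the lowest from 0.12 to 0.58, overlapped that of 1449210_at.

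Hmga2, an architectural chromatin protein that binds AT-rich DNA, read higher in Cre-GFP cells on its 3 probe sets. All 3 were dim, with mean levels between percentiles 24.1 and 37.5 of all probe sets. Probe set 1422851_at read 46.4 and 49.3 in Cre-GFP cells, against 33.9 and 30.9 in control cells. Its log2 difference was 0.56 ± 0.11, a fold of 1.48, with a 95% interval from 0.29 to 0.83. By limma its unadjusted p was 0.0023, rank 82, and its adjusted p was 0.568. Leaving out arrays in turn gave 0.50 to 0.63, but with 50 added to every intensity the difference was 0.25.

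Probe set 1450781_at of Hmga2 read 35.0 and 38.8 in Cre-GFP cells, against 26.1 and 32.0 in control cells, a log2 difference of 0.35 ± 0.14. Its value on control 1 lay under that array's 20th percentile of 26.8. Probe set 1450780_s_at read 59.3 and 61.4 in Cre-GFP cells, against 56.5 and 46.0 in control cells, a log2 difference of 0.24 ± 0.14. The difference of 1450780_s_at moved with the control arrays: without control 2 it was 0.094, and without control 1 it was 0.39. For 1450781_at the values were 0.50 without control 2 and 0.20 without control 1, and with 50 added 0.14. Limma's adjusted p-values were 0.996 for 1450781_at and 1 for 1450780_s_at. The 3 probe sets share 1 reference transcript in the platform annotation, and the disagreement of 1450780_s_at with 1422851_at was -0.32 ± 0.15 and with 1450781_at -0.11 ± 0.22, with adjusted p by limma of 1 each. The second of these turned to 0.19 without control 1.

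Lin28a, the stem cell RNA-binding protein that blocks let-7 maturation, gave only weak signal. Probe set 1421749_at read 14.8 and 13.8 in Cre-GFP cells, against 16.1 and 16.4 in control cells, and 1437752_at read 14.7 and 15.1 in Cre-GFP cells, against 14.6 and 14.3 in control cells. All 8 values lay under the arrays' 20th percentiles. The groups did not overlap on either probe set, lower on the first and higher on the second, with log2 differences of -0.19 ± 0.088 and 0.039 ± 0.084. The 95% intervals ran from -0.41 to 0.027 and from -0.17 to 0.25, and limma's adjusted p was 1 for each. At this signal a difference in Lin28a was not measurable in either direction. Lin28b was not analysed here.

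Igf2, the fetal growth factor whose mRNA gave the Igf2bp family its name, overlapped between the groups on both probe sets. Probe set 1448152_at read 135 and 111 in Cre-GFP cells, against 149 and 115 in control cells, a log2 difference of -0.096 ± 0.19 with a 95% interval from -0.57 to 0.37. Replicate 1 of each group was the higher one. The difference turned to 0.045 without Cre-GFP 2 and to 0.091 without control 1. Probe set 1415931_at read 43.8 and 38.9 in Cre-GFP cells, against 40.6 and 31.1 in control cells, a log2 difference of 0.22 ± 0.16, which was 0.025 without control 2 and 0.41 without control 1. Limma's adjusted p was 1 for each.

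H19, a maternally expressed long noncoding RNA next to Igf2 in the imprinted cluster, was read jointly with Mir675, the miRNA gene inside it. Probe set 1448194_a_at read 581 and 707 in Cre-GFP cells, against 349 and 478 in control cells, so the lowest Cre-GFP array stood above the highest control array. The log2 difference was 0.65 ± 0.22, a fold of 1.57, with a 95% interval from 0.10 to 1.20. By limma its unadjusted p was 0.028 and its adjusted p 0.948 in a fit of 22626 probe sets that included those with several or no symbols. Without control 1 the difference was 0.42 and without control 2 it was 0.88. Igf2 overlapped between the groups while the joint probe set did not, and the difference between them was not tested.

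Mean levels of the B lineage, monocyte and macrophage, and megakaryocyte and platelet markers also differed between the groups without overlap. Those of the other marker lists overlapped. The mean log2 level of 12 measured B lineage markers was 9.02 to 9.53 in Cre-GFP cells and 9.90 to 10.01 in control cells, with 11 of 12 lower in Cre-GFP cells and 8 below without overlap, against 14.9% of all genes. That of 12 monocyte and macrophage markers was 7.01 to 7.32 in Cre-GFP cells and 6.61 to 6.96 in control cells, with 10 higher and 4 above without overlap, against 15.2% of all genes. That of 10 neutrophil and granule markers was 7.71 to 7.81 in Cre-GFP cells and 6.86 to 7.72 in control cells, with 8 higher and 4 above without overlap. The 13 stroma and endothelium markers averaged 5.47 to 5.59 in Cre-GFP cells and 5.49 to 5.55 in control cells. Of them, 7 were higher and 6 lower, 2 lay above without overlap, and 4 were under the 20th percentile on all arrays. The 8 stem and progenitor markers averaged 5.95 to 6.05 in Cre-GFP cells and 5.97 to 6.03 in control cells. Of them, 6 were higher and 2 lower, and 1 lay above and 1 below without overlap. The 6 megakaryocyte and platelet markers averaged 5.66 to 5.67 in Cre-GFP cells and 5.50 to 5.56 in control cells. Of these, 5 were higher, and 2 lay above and 1 below without overlap. The T and NK, mast cell and basophil, and erythroid lists averaged 5.57 to 6.12 in Cre-GFP cells and 5.60 to 6.07 in control cells. In each of these lists 2 markers lay above without overlap, and 1 erythroid marker lay below. The part of these cell types in the differences of Igf2bp3, Hmga2 and the joint H19 probe set was not tested.

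**Figure D4:**
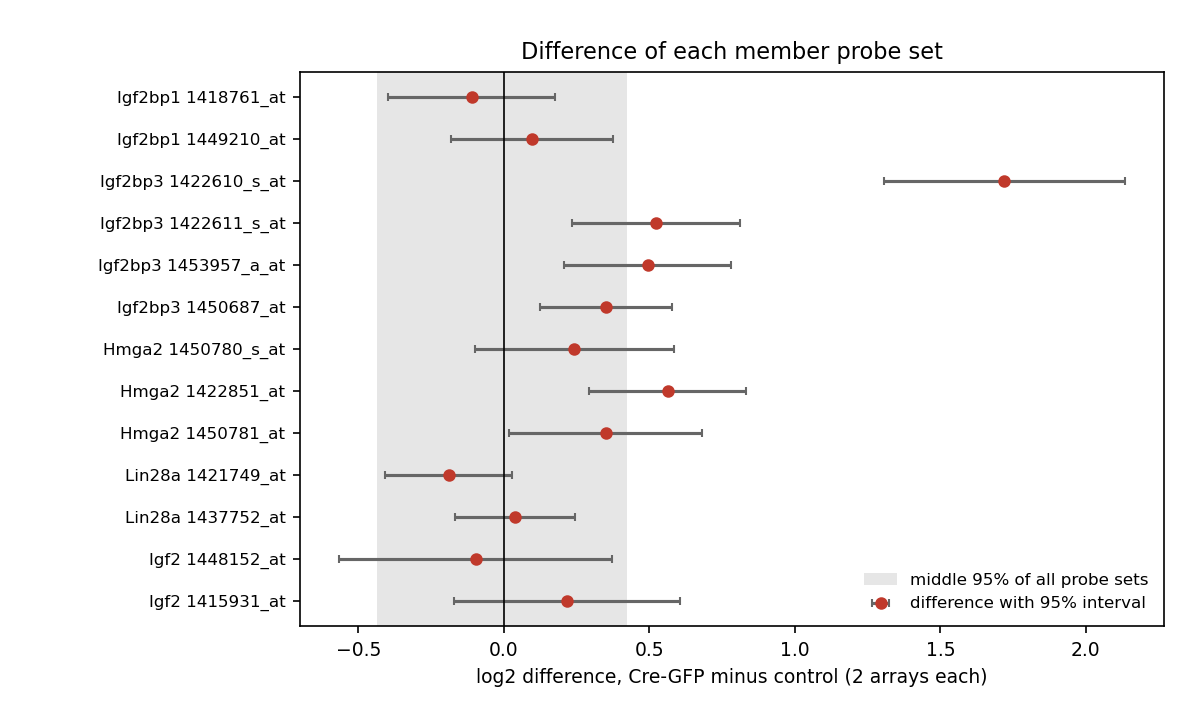
Log2 difference, Cre-GFP minus control (horizontal axis), of each of the 13 member probe sets, with points for estimates, bars for 95% intervals of limma with 2 arrays per group, and grey for the middle 95% of all probe sets. The interval of Igf2bp3 probe set 1422610_s_at starts at 1.30, beyond the grey range that ends at 0.42.

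**Figure D5:**
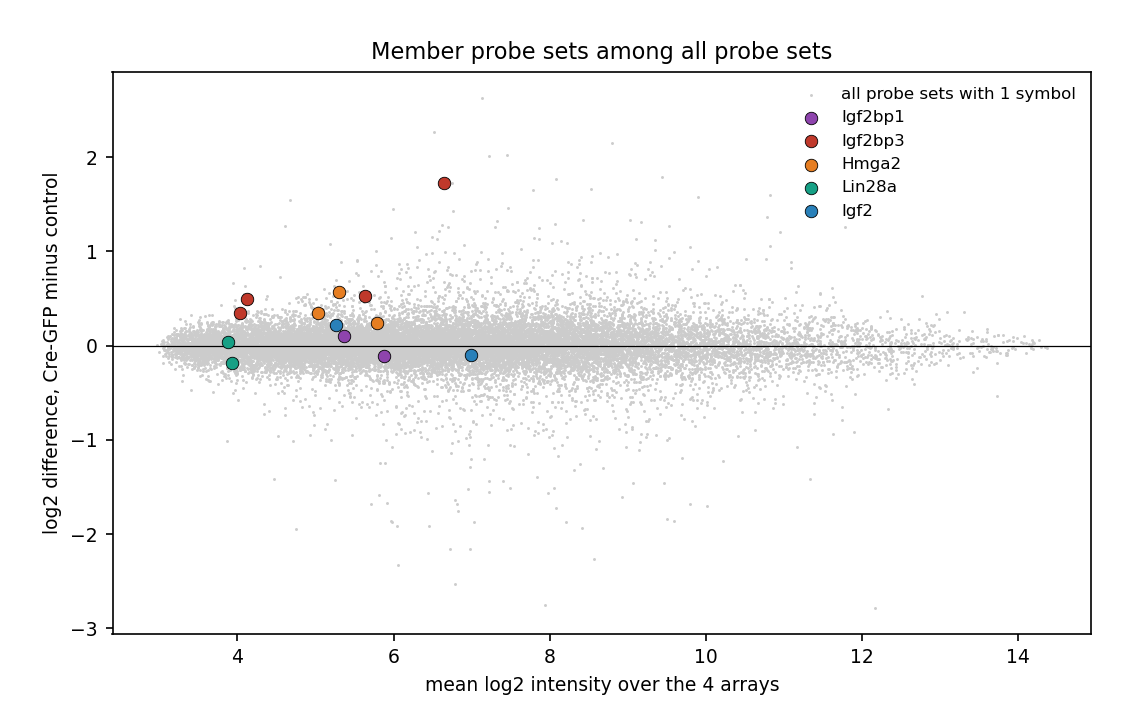
Log2 difference, Cre-GFP minus control (vertical axis), against the mean log2 intensity over the 4 arrays (horizontal axis), with grey points for all 20380 probe sets of 1 symbol and coloured points for members. Igf2bp3 probe set 1422610_s_at stands out at 1.72, and the next widest difference of a member is 0.56, of Hmga2 probe set 1422851_at.

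Genes linked to the members by function, family, imprinting or fetal expression were read from 7 lists, with 1 probe set a gene. They stand beside all 12393 genes, whose median log2 difference was 0. Over all genes, 15.2% had both Cre-GFP arrays above both control arrays and 14.9% had both below. None of the genes in the 7 lists passed the adjusted threshold of limma, and no gene of the table did, with 599 genes at an unadjusted p under 0.05. That count of 0 became 135 without control 1, 34 without control 2 and 2 with the ordinary two-sample test.

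Of 22 symbols listed for Lin28 and let-7 maturation, with some genes listed under an older name as well, 11 were measured. Both Cre-GFP arrays lay above the control arrays for 3 and below for 2, and the median difference was -0.065, which became 0.16 without control 1. Ago2, the slicing Argonaute that carries miRNAs, differed by 0.40 ± 0.21, Xpo5, which exports miRNA precursors, by 0.33 ± 0.18, and Tarbp2, a partner of Dicer, by 0.25 ± 0.14. Hnrnpa1, an RNA-binding protein that acts on let-7 precursors, differed by -0.34 ± 0.16. Its 3 probe sets ran from -0.47 to 0.12. Leaving out arrays in turn gave 0.17 to 0.63 for Ago2, 0.16 to 0.51 for Xpo5 and -0.49 to -0.19 for Hnrnpa1, decided by the Cre-GFP arrays for Ago2 and by the control arrays for Xpo5 and Hnrnpa1.

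Of 26 mRNAs known as let-7 targets, 22 were measured, with 2 above and 3 below without overlap and a median of 0.048, which was -0.055 without control 2. Mycn, a Myc family transcription factor, had log2 values of 11.53 and 10.02 in Cre-GFP cells, against 13.63 and 13.49 in control cells. Its difference of -2.78 ± 0.45 was the lowest of all genes and had an adjusted p of 0.277 by limma, which passed the threshold at 0.010 without control 1 and at 0.021 without control 2. Its 3 probe sets ran from -2.78 to 0.027. Arid3b, a DNA-binding protein, differed by 0.47 ± 0.15, or 0.30 without Cre-GFP 1, and Tgfbr1, a TGF-beta receptor, by -0.44 ± 0.16, with probe sets from -0.44 to 0.24.

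Of 20 mRNAs known to be bound by Igf2bp proteins, 18 were measured, with 1 above and 6 below without overlap and a median of -0.033, which was 0.029 without Cre-GFP 2 and 0.058 without control 1. Ccnd2, the cyclin D2 of early B cells and also a let-7 target, differed by 0.82 ± 0.39 with overlapping groups, and its 7 probe sets ran from 0.20 to 0.93. It was 0.34 without control 2 and 1.30 without control 1. Ccnd3, the related cyclin D3, differed by -0.54 ± 0.26 and by -0.20 without control 2 and -0.88 without control 1. Actb, the beta-actin mRNA to which Igf2bp1 binds, differed by -0.18 ± 0.12, and Homer1, a scaffold protein, by 0.16 ± 0.10, with 3 probe sets from -0.070 to 0.16. Homer1 was 0.10 without control 1.

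Of 22 IGF ligands, receptors, binding proteins and adaptors, 21 were measured, with 3 above and 1 below without overlap and a median of 0.025, which ran from -0.063 without Cre-GFP 1 to 0.085 without Cre-GFP 2. Irs1, the adaptor that carries the signal of the insulin and IGF1 receptors, had log2 values of 9.30 and 7.63 in Cre-GFP cells, against 6.88 and 5.99 in control cells. The difference was 2.03 ± 0.56 with an adjusted p of 0.730 by limma, but passed at 0.032 without control 1, where the difference was 2.47. Leaving out Cre-GFP 1 gave 1.19, and leaving out Cre-GFP 2 gave 2.86. Irs2, the related adaptor, differed by -0.23 ± 0.21 with overlapping groups and turned to 0.016 without Cre-GFP 2. Insrr, a receptor of the insulin receptor family, differed by -0.097 ± 0.11, and Igfbp5, an IGF binding protein, by 0.15 ± 0.17, with its other probe set at -0.21. Leaving out arrays in turn gave -0.16 to -0.036 for Insrr and 0.051 to 0.24 for Igfbp5.

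Of 22 symbols listed for imprinted growth genes, with Ndn also under the name Necdin, 20 were measured. Among these, 2 lay above and 3 below without overlap. Their median was -0.033, which was 0.056 without Cre-GFP 2. Peg3, a paternally expressed zinc finger protein, differed by 0.25 ± 0.12, Mest, a paternally expressed hydrolase, by 0.20 ± 0.11, and Nnat, a small membrane protein, by -0.15 ± 0.086. Nnat lay under the 20th percentile on all arrays, so raising values to that percentile left only the percentiles' own difference of -0.0036. Cdkn1c, an inhibitor of cyclin-dependent kinases, differed by -0.48 ± 0.45. The control arrays decided that value, which was 0.22 without control 2 and -1.18 without control 1, where it passed with an adjusted p of 0.033 by limma.

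Of 10 other Hmg box and Hmgn genes, 7 were measured, with 1 above and 1 below without overlap and a median of -0.012, which ran from -0.16 without control 1 to 0.13 without control 2. Hmgn3, a nucleosome-binding protein, differed by -0.55 ± 0.25, Hmgn1, its relative, by 0.29 ± 0.17, Hmgb2, a DNA-bending protein, by -0.32 ± 0.19, and Hmg20b, an Hmg box protein of a corepressor complex, by 0.22 ± 0.28. Without control 1 Hmgn3 was -0.84 and without control 2 it was -0.25. Leaving out arrays in turn gave 0.13 to 0.44 for Hmgn1 and -0.50 to -0.15 for Hmgb2. The 4 probe sets of Hmgn1 ran from -0.19 to 0.51, and Hmg20b turned to -0.21 without Cre-GFP 1.

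Of 16 genes known from fetal hematopoiesis, 14 were measured, with 0 above and 5 below without overlap and a median of -0.11. Mycn was the lowest of them. Sox17, a transcription factor of fetal blood stem cells, differed by -0.43 ± 0.16, with 2 probe sets at -0.43 and 0.21. Igll1, a surrogate light chain of pre-B cells, differed by -0.19 ± 0.099. Hbb-bh1, an embryonic beta-like globin, differed by -0.26 ± 0.15, with 3 probe sets from -0.26 to 0.38. Igll1 was also among the B lineage markers, and so was Rag1 of this list, which differed by 0.23 ± 0.27. Without control 1 and without control 2, in that order, Sox17 was -0.25 and -0.60 and Hbb-bh1 was -0.086 and -0.44.

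As a check of the construct, Kmt2a, the mouse gene for Mll, and Aff1, that for Af4, did not separate the groups. Their brightest probe sets differed by -0.18 ± 0.26 and -0.26 ± 0.27, turned to 0.16 and 0.12 without Cre-GFP 2, and had adjusted p of 1 by limma. These probe sets are not known to read the fusion transcript, so they do not check its activation.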

How the data were processed

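Gene expression was measured on 4 Affymetrix mouse arrays, 2 of Cre-GFP and 2 of control cells, from 20 ng of total RNA amplified with a NuGen Ovation kit per the labels' protocols. The authors deposited 1 table of linear probe set intensities, made with RMA per the submitters' processing notes, which name no version. RMA as usually run equalises the arrays and compresses differences of dim probes, and no scan dates or detection calls were used, which leaves scan batches untested.

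The log2 of each intensity was taken with no further normalization. Of 22690 probe sets, 691 had several symbols and 1606 none, and these and the 13 of 64 control probe sets with 1 symbol were left out, which left 20380. Of these 20351 matched RefSeq by gene number, with 0 symbols changed. The fits used limma 3.58.1 (R 4.3.3), as lmFit followed by eBayes with trend, and gave two-sided p-values. Benjamini-Hochberg adjustment ran over all probe sets, over all probe set pairs of a gene, or over 12393 genes given by their brightest probe set. The procedure was tested on simulated data, and no outcome of that test is reported here. Errors are limma's standard errors. The median 95% interval of a probe set reached 0.37 to either side, a precision limited by the number of arrays.

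The members and lists were chosen with earlier results of these data known. All member probe sets were named, with the 5 genes closest to Igf2bp3, up to 4 genes a list with the smallest unadjusted p, and Kmt2a and Aff1. The alternatives were other normalizations, filters, offsets, variance models and choices of probe sets, each array left out, and the replicate number as a block.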

Additional observations from a re-analysis of the deposited data

How the results depend on the processing

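With 2 arrays per group, 1 array could decide a call. No probe set passed the threshold as reported, but 1 did with an ordinary test with equal variances, 26 without control 1 and 1 without control 2, so 0 to 26 over the arrays left out, and of the members 0 to 1. Of genes given by 1 probe set, 0 passed, but 135 did without control 1, 34 without control 2 and 2 with the ordinary test. Of the 8 member probe sets higher without overlap, 1 was left without the dimmest 40% of probe sets and 2 with 1 probe set a gene. Without those ending in _s_at or _x_at 5 were left, and with values raised to the 20th percentile 5 were higher. Of the 2 lower, 0 were left without the dimmest 40% and 1 with raised values. With 1 probe set a gene 2 were left, and 2 to 3 were lower over the arrays left out. Raised values turned Igf2bp3 1453957_a_at and 1450687_at and Lin28a 1437752_at to -0.0036, the percentiles' own difference, as each lay under that percentile on all arrays.

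The replicate numbers could not be shown to pair the arrays: replicate 1 minus 2 correlated at 0.36 between the groups over all probe sets, from only 2 pairs. With the replicate number as a block, 0 probe sets passed, but 36 of 7987 probe set pairs passed, against 0 as reported and 0 to 15 over the arrays left out (15 without control 1, 3 without control 2). Among the 36 was the Igf2bp3 pair of 1422610_s_at and 1422611_s_at, at an adjusted p by limma of 0.0073, and so were the pairs with the dim 1450687_at and 1453957_a_at. The 3 pairs kept their direction under the 12 alternatives that could form them.

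Over the arrays left out in turn, differences that turned sign ranged from -0.28 to 0.091 for Igf2 1448152_at (0.045 without Cre-GFP 2), from -0.40 to 0.19 for the Hmga2 pair of 1450780_s_at and 1450781_at, from -0.49 to 0.016 for Irs2, from -1.18 to 0.22 for Cdkn1c, from -0.21 to 0.66 for Hmg20b, from -0.52 to 0.16 for Kmt2a and from -0.64 to 0.12 for Aff1. List medians ranged from -0.19 to 0.16 for Lin28 and let-7 maturation, from -0.055 to 0.087 for let-7 targets, from -0.089 to 0.058 for Igf2bp targets, from -0.063 to 0.085 for IGF ligands, receptors and binding proteins, from -0.064 to 0.056 for imprinted genes, from -0.16 to 0.13 for other Hmg genes and from -0.13 to -0.067 for fetal genes. The fetal median was -0.063 without the dimmest 40% and -0.056 with 50 added.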
